A study of Mus musculus with 65 samples.

Results

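The 9 genes described here, Chat, Slc18a3, Slc5a7, Isl1, Phox2a, Chodl, Prph, Mnx1 and Tbx20, are a named list of genes of cholinergic cranial motor neurons, and all 9 were found among the 49670 gene IDs of the count table. RNA had been sequenced in 65 libraries of medulla, pons and cerebellum from C57BL/6J mice. One genotype was wild type, and the other carried Atxn1[82Q], a knockin of an expanded CAG repeat that serves as a model of spinocerebellar ataxia. Wild type mice had been given vehicle, and knockin mice had been given vehicle or an antisense oligonucleotide against Atxn1 (ASO), so each combination of region and age held the same 3 groups. The labels give no dose or time of dosing, and no wild type group with the ASO was analysed here. At 28 weeks of age, medulla had 8 libraries of wild type, 8 of knockin with vehicle and 7 of knockin with the ASO, split over 2 batches named in the labels, and pons had 4 libraries in each group. At 18 weeks, medulla and pons had 3 libraries in each group and cerebellum had 4. Below, knockin without a further word means vehicle-treated knockin.

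Motor neurons of the brainstem lie in the nuclei of the cranial nerves. Those of the trigeminal, abducens and facial nerves lie in or next to the pons, and those of the vagus and hypoglossal nerves lie in the medulla. They signal with acetylcholine, which Chat (choline acetyltransferase) makes, Slc18a3 (the vesicular acetylcholine transporter) loads into vesicles, and Slc5a7 (the high-affinity choline transporter) supplies with choline taken back up from the synapse. Isl1, Phox2a, Mnx1 and Tbx20 encode transcription factors of motor neuron identity, with Mnx1 in somatic and Tbx20 in branchial and visceral motor neurons. Phox2a also specifies noradrenergic neurons of the locus coeruleus in the pons. Prph encodes peripherin, an intermediate filament of neurons whose axons leave the brain, and Chodl encodes chondrolectin, a membrane protein of fast motor neurons. Cholinergic neurons of the pons that are not motor neurons also express Chat, Slc18a3 and Slc5a7.

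Total counts ranged from 49.2 to 119.1 M per library, with a median of 77.0 M. The labels do not state that the libraries of a group came from separate mice. The table's headers give each library of a group its own number, but the labels do not say that these number mice. The p-values therefore speak for the spread between these libraries only, which may be technical. Levels are given as CPM, each library's counts brought to 1 common depth by TMM, and differences are log2 ratios with their standard errors. Atxn1 went against the label in a few libraries. At 18 weeks, replicate 3 of the libraries labelled wild type had 15.3 CPM (medulla) and 16.4 CPM (pons), beside 33.3 to 51.5 CPM in the other wild type libraries of both regions. The library labelled ASO replicate 2 held 38.7 and 50.9 CPM at 18 weeks, and 49.4 and 50.9 CPM at 28 weeks, close to or within the range of the knockin libraries. In medulla at 28 weeks, 5 of 23 libraries stood apart by low Hox genes, which mark the caudal hindbrain: wild type replicate 5 and knockin replicate 8 of batch 2, ASO replicates 6 and 7 of batch 2 and ASO replicate 3 of batch 1.

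On GRCm38 the genes are spread over 8 chromosomes. Chat (ENSMUSG00000021919) lies on the minus strand of chromosome 14 from 32408203 to 32465989. Slc18a3 (ENSMUSG00000100241) lies inside the span of Chat, from 32462438 to 32464850 on the same strand, and shares 0 exon bases with it. Slc5a7 (ENSMUSG00000023945) lies on chromosome 17 from 54273590 to 54299034 (minus strand), Isl1 (ENSMUSG00000042258) on chromosome 13 from 116298281 to 116309689 (minus), and Phox2a (ENSMUSG00000007946) on chromosome 7 from 101818313 to 101822726 (plus). Chodl (ENSMUSG00000022860) lies on chromosome 16 from 78930948 to 78951733 (plus), Prph (ENSMUSG00000023484) on chromosome 15 from 99055174 to 99058978 (plus), Mnx1 (ENSMUSG00000001566) on chromosome 5 from 29473034 to 29478470 (minus), and Tbx20 (ENSMUSG00000031965) on chromosome 9 from 24718138 to 24774303 (minus). Phox2a shares 95 exon bases with Inppl1 on the opposite strand. The sources used here do not say whether counting used strand, so some Phox2a counts may come from Inppl1 reads.

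Promoters of 4 genes that fell together in the knockin pons are shown for their sequence: an acetylcholine gene, the choline transporter, a transcription factor and a structural protein. They are the RefSeq sequences (GRCm38) of up to 250 bases before the start site that no annotated exon covers, written 5′ to 3′ on the gene's strand, at chr14:32465990-32466159 for Chat, chr17:54299035-54299284 for Slc5a7, chr7:101818063-101818312 for Phox2a and chr15:99054924-99055173 for Prph. Capitals mark, on either strand, the homeodomain core TAATTA, the GC box GGGCGG or the TATA box with the letters TATAAA.
Chat: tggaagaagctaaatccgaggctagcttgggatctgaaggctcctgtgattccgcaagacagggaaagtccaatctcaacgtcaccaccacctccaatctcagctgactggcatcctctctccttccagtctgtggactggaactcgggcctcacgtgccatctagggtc
Slc5a7: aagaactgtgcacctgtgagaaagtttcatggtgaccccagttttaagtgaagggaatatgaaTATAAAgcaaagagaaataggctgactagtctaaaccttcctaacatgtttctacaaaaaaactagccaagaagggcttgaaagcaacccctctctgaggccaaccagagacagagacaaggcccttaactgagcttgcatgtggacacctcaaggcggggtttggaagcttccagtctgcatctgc
Phox2a: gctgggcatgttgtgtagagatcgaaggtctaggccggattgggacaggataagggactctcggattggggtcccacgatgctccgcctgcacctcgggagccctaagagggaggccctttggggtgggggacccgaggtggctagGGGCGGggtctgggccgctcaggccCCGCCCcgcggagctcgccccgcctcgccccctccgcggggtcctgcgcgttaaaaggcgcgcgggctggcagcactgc
Prph: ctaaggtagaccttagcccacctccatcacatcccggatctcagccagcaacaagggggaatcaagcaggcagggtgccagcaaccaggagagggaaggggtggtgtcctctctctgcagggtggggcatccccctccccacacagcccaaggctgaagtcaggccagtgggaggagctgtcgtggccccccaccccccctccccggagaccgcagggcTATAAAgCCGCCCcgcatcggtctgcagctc
Chat has none of these 3 motifs in its stretch. Slc5a7 has TATAAA far from its start (-187), Prph has TATAAA near its start (-31) followed by a GC box on the other strand (-24), and Phox2a has GC boxes at -104 and -79. Over windows of 300 bases (250 before to 50 after the start), TAATTA was in 0 of the 9 genes and in 5.29% of 32851 windows of all genes. GGGCGG was in 5 of 9, against 35.7% of all windows, TATAAA in 2 of 9 against 13.6%, and the E-box CANNTG in 7 of 9 against 72.3%. These matches are letters only and no binding was measured.

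In wild type mice at 28 weeks, the cholinergic genes and Prph were the most expressed of the 9 per kilobase of exon, and the transcription factors the least. In medulla, mean levels per kilobase were 24.6 CPM for Prph, 10.8 for Slc5a7, 9.07 for Slc18a3, 4.64 for Chat and 2.17 for Chodl, and 0.199 to 0.549 for the 4 transcription factors. In pons, Slc5a7 at 8.72 and Prph at 8.66 CPM per kilobase led, followed by Slc18a3 at 6.01, Chat at 3.59 and Chodl at 1.8. The transcription factor with the highest level per kilobase in pons was Phox2a at 0.693 CPM.

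Mnx1 was a gene of the medulla in these libraries. The 8 wild type medulla libraries at 28 weeks held 358 counts of Mnx1, and the 4 wild type pons libraries held 2, so relative to depth the medulla level was 81.8 times higher (95% exact interval 22.5 to 678, counting error only). Across all groups of pons at 28 weeks, 7 of 12 libraries had a Mnx1 count of 0. Between wild type pons and medulla, edgeR called 2 of the 9 genes, both lower in pons, with 14.2% of all genes called in either direction: Mnx1 (adjusted p = 0.00081) and Prph. Prph held 14.6 to 19.5 CPM in the 4 wild type pons libraries and 15.6, 56.5 and 66.7 CPM (lowest, median and highest) in the 8 wild type medulla libraries, a log2 difference of -1.46 ± 0.27 (adjusted p = 0.00069). The groups overlapped only through the wild type medulla library at 15.6 CPM.

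Chat did not pass between the regions, with 14.1 to 21.9 CPM in wild type pons and 13.4, 22.1 and 28.4 CPM (lowest, median and highest) in wild type medulla (log2 difference -0.31 ± 0.19, adjusted p = 0.3). The medulla value depended on the batch: wild type libraries of batch 1 averaged 27.1 ± 1.6 CPM (SD, n = 4) and those of batch 2 averaged 16.5 ± 3.33 CPM. Slc5a7 showed the same split, with 78.5 ± 3.12 CPM in batch 1 and 42.9 ± 9.47 CPM in batch 2 (SD, n = 4 each). The numbers in the table's headers tie pons libraries to medulla libraries of batch 1. With that number as a block and batch 1 alone for medulla, a fit added after the data were seen, 6 of the 9 genes were lower in pons: Chat (-0.70, adjusted p = 0.022), Slc18a3, Slc5a7 and Isl1 joined Prph and Mnx1. That fit changed the block and the medulla libraries together, and their separate effects were not tested. The share of all genes called in it is not given here. Over all alternatives, 1325 to 4134 of all genes were called in this comparison, beside 3083 in the main fit.

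**Figure D1:**
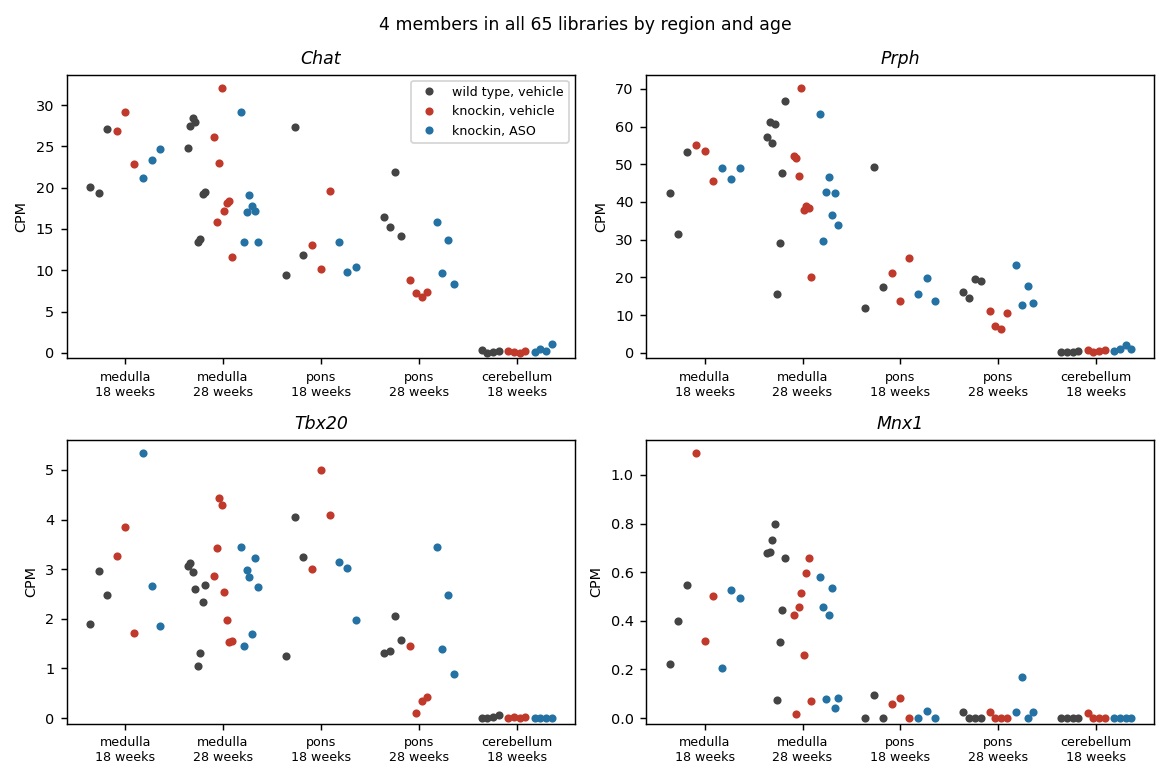
CPM on a linear axis of Chat, Prph, Tbx20 and Mnx1 in each of the 65 libraries, by region, age and group. Each point is 1 library. Chat and Prph are lowest in cerebellum, and Mnx1 is at or near 0 in pons and cerebellum and reaches 1.09 CPM in medulla.

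Ordered by their mean Chat level, the 15 groups ran from knockin medulla at 18 weeks (26.3 ± 3.22 CPM, SD, n = 3) down to knockin cerebellum (0.129 ± 0.0849 CPM, n = 4). The 6 medulla groups held the top of the order, from 26.3 to 18.2 CPM, and neighbours within it overlapped. The pons groups followed, from 16.9 CPM in wild type at 28 weeks to 7.56 CPM in knockin at 28 weeks. Only 2 steps in the order separated all libraries of neighbouring groups: the step down to knockin pons at 28 weeks, and the step from there to cerebellum.

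At 28 weeks, Chat, Slc18a3, Slc5a7, Phox2a, Chodl and Prph were about 2 to 3 times lower in knockin than in wild type pons. These 6 fell, 0 rose, and Tbx20 and Isl1 did not pass, out of the 8 genes that met the filter on low counts; Mnx1 did not meet it. Of all genes tested in this comparison, 9.79% were called in either direction and 5.65% were called lower. DESeq2 called the same 6, with 16.3% of all genes called. The median log2 difference of the 8 was -1.21, beside 0.01 over all genes tested. In the same 6 genes every knockin library was below every wild type library, as in 8.39% of all genes. In bulk RNA, fewer cells that express these genes and less RNA of them per cell cannot be told apart. Chat, Slc18a3, Slc5a7 and Phox2a are also expressed by neurons of the pons that are not motor neurons. Which cells the falls came from was not tested.

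The acetylcholine genes come first. Chat held 16.4, 15.2, 21.9 and 14.1 CPM in wild type pons and 8.85, 7.19, 6.79 and 7.41 CPM in knockin pons. All knockin libraries lay well below the lowest wild type library, and Chat fell 2.24-fold (log2 difference -1.16 ± 0.21, adjusted p = 0.0072). Slc5a7 held 56.8, 39.8, 62.2 and 37.9 CPM in wild type and 26.5, 18.9, 20.5 and 22.7 CPM in knockin, a fall of 2.22-fold (adjusted p = 0.0081). Slc18a3 held 15.5, 11.0, 17.3 and 14.1 CPM in wild type and 7.86, 4.62, 4.7 and 5.5 CPM in knockin, a fall of 2.56-fold (adjusted p = 0.016). The gap between the groups was narrowest for Slc18a3, and its call ended without knockin replicate 2 (adjusted p = 0.058) or knockin replicate 3 (0.056).

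Among the transcription factors, Phox2a had the largest fall. It held 1.17, 1.26, 1.65 and 1.57 CPM in wild type pons and 0.386, 0.482, 0.32 and 0.577 CPM in knockin pons, a fall of 3.2-fold (log2 difference -1.68 ± 0.25, adjusted p = 0.0014). Every knockin library was below the lowest wild type value by a wide margin. Tbx20 held 1.31, 1.36, 2.05 and 1.57 CPM in wild type and 1.46, 0.113, 0.345 and 0.42 CPM in knockin (-1.42 ± 0.62, adjusted p = 0.18). Knockin replicate 1 stood among the wild type values while the other 3 were far below them, and without that library Tbx20 was called (-2.41, adjusted p = 0.028). Isl1, a factor kept by most cranial motor neurons, held 1.25, 0.881, 1.38 and 1.37 CPM in wild type and 0.945, 1.01, 0.64 and 1.13 CPM in knockin (-0.40 ± 0.21, adjusted p = 0.24). Its groups overlapped.

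The structural and membrane genes went the same way. Chodl held 10.5, 7.25, 12.2 and 9.69 CPM in wild type pons and 5.31, 3.02, 4.05 and 4.19 CPM in knockin pons, a fall of 2.39-fold (log2 difference -1.26 ± 0.19, adjusted p = 0.0021). Prph held 16.2, 14.6, 19.5 and 19.0 CPM in wild type and 11.1, 7.24, 6.25 and 10.6 CPM in knockin, a fall of 1.97-fold (-0.98 ± 0.23, adjusted p = 0.027). The groups of both genes did not overlap. The call of Prph was the least stable: it ended with no filter on low counts (adjusted p = 0.062) and without any 1 of knockin replicates 2 and 3 and wild type replicates 1, 3 and 4 (0.053 to 0.088). Over 17 alternative settings, Chat, Slc5a7, Phox2a and Chodl were called in all 17, and 4 to 7 of the 8 genes were called in each.

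**Figure D2:**
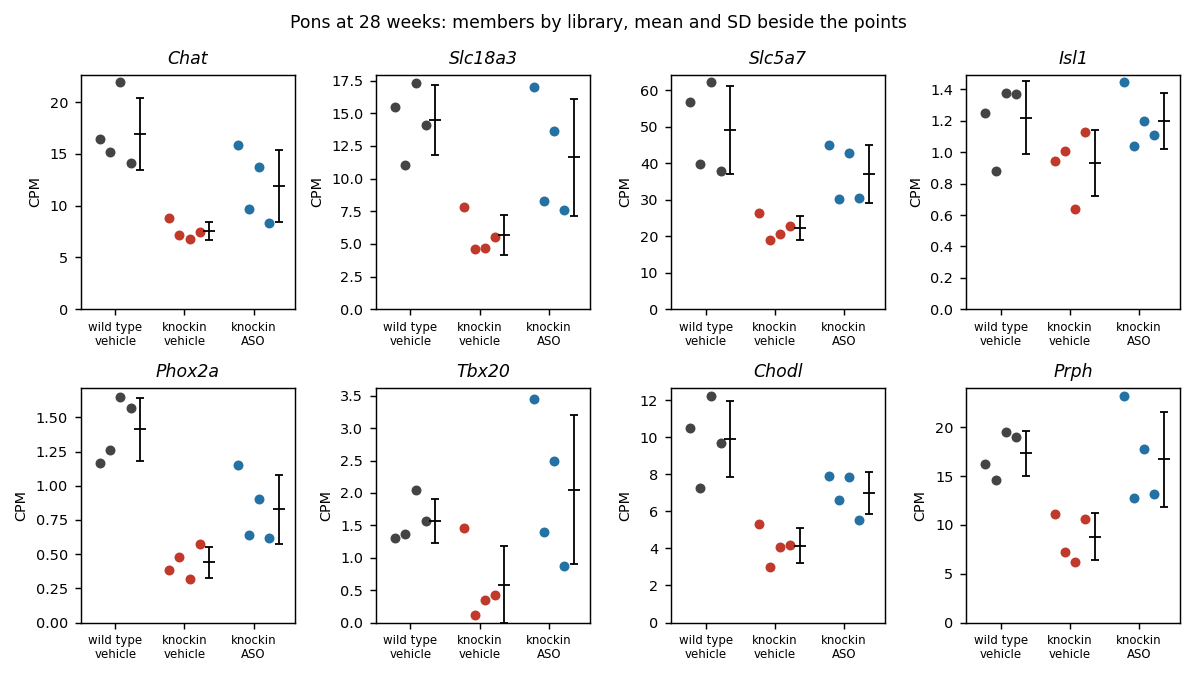
CPM of 8 of the genes in each pons library at 28 weeks, by group (4 libraries each); points are libraries, and the line and bar are the mean and SD. Knockin libraries lie below all wild type libraries for Chat, Slc18a3, Slc5a7, Phox2a, Chodl and Prph, and ASO libraries overlap with wild type for all genes but Phox2a and with knockin for Chat, Slc18a3, Isl1 and Tbx20.

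Markers of other cells and of position were read in the same pons libraries, where 9.79% of all genes were called and 5.65% were called lower. Of 7 noradrenergic genes, all of which lie outside the motor neuron list, 6 were lower in knockin, led by Dbh, which makes noradrenaline (log2 difference -2.53, adjusted p = 1.1e-08), and their summed level was 440 to 711 CPM in wild type and 256 to 330 CPM in knockin. Of 4 serotonergic genes 3 were lower, of 6 astrocyte genes 4 were lower, and of 10 pan-neuronal genes 2 were lower, with summed pan-neuronal levels of 7315.8 to 7533.2 CPM in wild type and 6435.6 to 7095.7 CPM in knockin. Oligodendrocyte genes all had negative values and 2 of 6 were lower, with sums of 16037.1 to 17381.3 CPM in wild type and 9971.6 to 14796.8 CPM in knockin. Of 3 endothelial genes, all negative, Flt1 was lower, and their sums were 116 to 130 CPM in wild type and 98.1 to 100 CPM in knockin. The sums of the noradrenergic, serotonergic, astrocyte, pan-neuronal, oligodendrocyte and endothelial lists did not overlap between the groups. Such separation was thus not particular to the motor neuron genes. Serotonergic genes summed to 333 to 494 CPM in wild type and 142 to 250 CPM in knockin. Astrocyte genes summed to 3536.3 to 3780.3 CPM in wild type and 2193.0 to 2485.0 CPM in knockin. Sums of microglia genes overlapped, at 178 to 198 CPM and 167 to 199 CPM. Of 16 Hox genes, 13 were tested and all 13 had negative values, of which 0 were called and 0 had an unadjusted p under 0.05 (DESeq2 called 0). Their median was -0.57, and they summed to 32.6 to 64.0 CPM in wild type and 15.8 to 55.2 CPM in knockin. Genes of peripheral nerve and sensory ganglia, of which some also express Prph and Isl1, summed to 24.9 to 31.0 CPM in wild type and 25.7 to 31.4 CPM in knockin. Of the 7 of these 10 genes that were tested, 1 was lower and 0 were higher. Pmp2, a Schwann cell gene, was at 0 in all knockin and all ASO libraries of pons and at most 0.0122 CPM in wild type. The part of these genes and of dissection level in the falls was not tested.

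Other motor neuron genes were read from a list of 19, without the 9. In knockin pons 8 of the 19 were lower and 0 were higher, with a median log2 difference of -0.67. Of all genes tested, 5.65% were called lower. Stk32a, a kinase gene, fell by 0.75 on the log2 scale (adjusted p = 0.0095) and was called under all 17 alternatives. Spp1, which encodes osteopontin and is high in large motor neurons, fell 2.47-fold (adjusted p = 0.016), from 220 ± 16.1 to 89.1 ± 31.1 CPM (SD, n = 4 each). Lhx4, Anxa4, Vipr2, Esrrb and Nrg1 were also among the genes called. The count rested on few libraries: it was 1 to 5 without any 1 of the wild type libraries, knockin replicates 1 to 3 or ASO replicate 2, and 1 without knockin replicate 3. The call of Spp1 ended without knockin replicate 1 or without knockin replicate 3 (adjusted p = 0.055 in each).

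Of 8 further genes of acetylcholine handling, 3 were lower in knockin pons and 0 were higher, with 9.79% of all genes called in either direction. Slc10a4, a transporter-like protein of cholinergic and monoamine vesicles, fell 1.94-fold (adjusted p = 0.0072), from 39.1 ± 8.92 to 20.1 ± 1.98 CPM (SD, n = 4 each). Prima1, which anchors acetylcholinesterase in the membrane, fell 1.71-fold (adjusted p = 0.0024), and Ache, the esterase itself, fell by 0.18 on the log2 scale (adjusted p = 0.029). Without knockin replicate 4 the count was 7, and the share of all genes called in that fit is not given here. When single libraries were left out, 831 to 4259 of all genes were called, beside 2002 in the main fit. Of 14 acetylcholine receptor genes, 2 were lower: Chrm2 by 0.27 (adjusted p = 0.024) and Chrm4 by 0.54 on the log2 scale (adjusted p = 0.045). This share is near the 9.79% of all genes called, so the receptor count is not a result about the list. That count was 0 without any 1 of knockin replicates 1 to 3 or wild type replicate 3. Nos1, which marks cholinergic neurons of the laterodorsal and pedunculopontine tegmentum among other cells, fell 1.5-fold (adjusted p = 0.0085). It was 1 of 2 genes listed for these neurons. The other, Uts2r, was not called, and the median log2 difference of the 2 was -0.35.

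In ASO-treated knockin pons at 28 weeks, all 8 tested genes had higher values than in knockin, and 0 of 8 were called by edgeR, with 0.0929% of all genes called. Unadjusted p-values were under 0.05 for 7 of them, and DESeq2, with 3.43% of all genes called, called 6 higher: Chat, Slc18a3, Slc5a7, Phox2a, Chodl and Prph (adjusted p 0.0034 to 0.028). The share of all genes with an unadjusted p under 0.05 is not given here. The median log2 difference was 0.83, beside -0.01 over all genes tested. This comparison and that with wild type share the knockin libraries, so low knockin values enter both.

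Chat held 15.9, 9.69, 13.7 and 8.37 CPM in the ASO libraries, and Slc5a7 held 45.1, 30.3, 42.9 and 30.4 CPM. Replicates 1 and 3 were near wild type levels and replicates 2 and 4 were nearer to knockin. The log2 differences from knockin were 0.66 ± 0.21 for Chat (adjusted p = 0.18) and 0.75 ± 0.20 for Slc5a7 (adjusted p = 0.15). Chat overlapped with knockin and Slc5a7 did not. Slc18a3 held 17.0, 8.29, 13.6 and 7.63 CPM with the ASO (1.04 ± 0.28, adjusted p = 0.15), with the same 2 replicates high.

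Phox2a held 1.15, 0.643, 0.906 and 0.616 CPM in the ASO libraries (0.91 ± 0.25, adjusted p = 0.14), above all knockin libraries and below all wild type ones. Chodl held 7.92, 6.63, 7.85 and 5.52 CPM (0.76 ± 0.19, adjusted p = 0.13), and Prph held 23.2, 12.8, 17.8 and 13.2 CPM (0.93 ± 0.23, adjusted p = 0.14). Neither overlapped with knockin, so that with Slc5a7 and Phox2a 4 of the 8 genes were higher in every ASO library, as in 3.3% of all genes. Tbx20 held 3.45, 1.39, 2.49 and 0.88 CPM (1.81 ± 0.62, adjusted p = 0.22), and Isl1 held 1.45, 1.04, 1.2 and 1.11 CPM (0.37 ± 0.21, adjusted p = 0.42). For Atxn1, the target of the ASO, the group ran from 25.6 to 50.9 CPM with replicate 2 highest, beside 43.9 to 59.0 CPM in knockin.

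Against wild type, 0 of 8 genes were called in ASO-treated pons by edgeR, with 1.07% of all genes called, and 3 had an unadjusted p under 0.05. DESeq2, with 6.44% of all genes called, called Phox2a lower (adjusted p = 0.044). Phox2a was also the only one of the 8 whose ASO libraries were all below wild type, as in 6.38% of all genes (log2 difference -0.76, adjusted p = 0.11 in edgeR). For Chat the log2 difference from wild type was -0.50 (95% interval -0.90 to -0.10, adjusted p = 0.22), and for Prph it was -0.05 (-0.50 to 0.40, adjusted p = 0.94).

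Markers of other cells moved in these ASO libraries as well. By edgeR, 1.07% of all genes were called against wild type and 0.0929% against knockin. All 7 noradrenergic genes had values below wild type, with 4 called lower by edgeR and 7 by DESeq2, a median log2 difference of -1.17 and sums of 260 to 386 CPM. Against knockin, 2 of the 7 were higher, Dbh (log2 difference 0.99, adjusted p = 0.002) and the noradrenaline transporter gene Slc6a2 (0.88, adjusted p = 0.006), and the list median was 0.10. Of 6 astrocyte genes 0 were called against knockin by edgeR, with 5 at an unadjusted p under 0.05, and 4 were called higher by DESeq2. Their part in the values of the 8 genes was not tested.

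In medulla at 28 weeks, 1 of the 9 genes, Phox2a, fell in knockin and 0 rose, with 19.3% of all genes called in either direction. DESeq2 called the same gene, with 22.2% of all genes called. Chat, Slc18a3, Slc5a7, Chodl, Prph, Isl1, Tbx20 and Mnx1 did not pass. The median log2 difference of the 9 was -0.13, beside 0.01 over all genes tested.

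Phox2a held 0.93, 1.07 and 1.36 CPM (lowest, median and highest) in wild type medulla, 0.434, 0.715 and 0.984 CPM in knockin and 0.501, 0.704 and 1.1 CPM with the ASO. Wild type and knockin overlapped through knockin replicate 8 at 0.984 CPM, a library low in Hox genes. The log2 difference was -0.67 ± 0.17 (adjusted p = 0.0086). It was -0.76 in batch 1 alone (adjusted p = 0.095) and -0.58 in batch 2 alone (adjusted p = 0.14), and -0.76 without the libraries low in Hox genes (adjusted p = 0.0038).

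Chat held 13.4, 22.1 and 28.4 CPM (lowest, median and highest) in wild type, 11.6, 18.2 and 32.1 CPM in knockin and 13.4, 17.2 and 29.2 CPM with the ASO. The groups overlapped fully, and the log2 difference between knockin and wild type was -0.10 with a 95% interval of -0.40 to 0.21 (adjusted p = 0.73). Slc5a7 held 34.9, 64.9 and 82.1 CPM in wild type and 39.0, 59.8 and 95.1 CPM in knockin (0.12 ± 0.16, adjusted p = 0.67). Prph held 15.6, 56.5 and 66.7 CPM in wild type and 20, 42.9 and 70.3 CPM in knockin (-0.16 ± 0.22, adjusted p = 0.67). For these genes the wild type means of the 2 batches lay further apart than the means of the genotypes did.

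Isl1 held 0.671, 2.19 and 2.62 CPM in wild type medulla and 1.65, 2.47 and 4.04 CPM in knockin, a log2 difference of 0.51 ± 0.21 (adjusted p = 0.089). Without wild type replicate 7 it was called higher (0.62, adjusted p = 0.046). Mnx1 held 0.0736, 0.67 and 0.797 CPM in wild type and 0.0189, 0.44 and 0.657 CPM in knockin (-0.48 ± 0.54, adjusted p = 0.59). Its lowest value was 2 counts in knockin replicate 2, and 4 to 8 counts were found in each of the 5 libraries low in Hox genes. Chodl (-0.28 ± 0.17, adjusted p = 0.28), Slc18a3 (-0.13 ± 0.19, 0.71) and Tbx20 (0.21 ± 0.21, 0.55) overlapped between the groups as well.

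**Figure D3:**
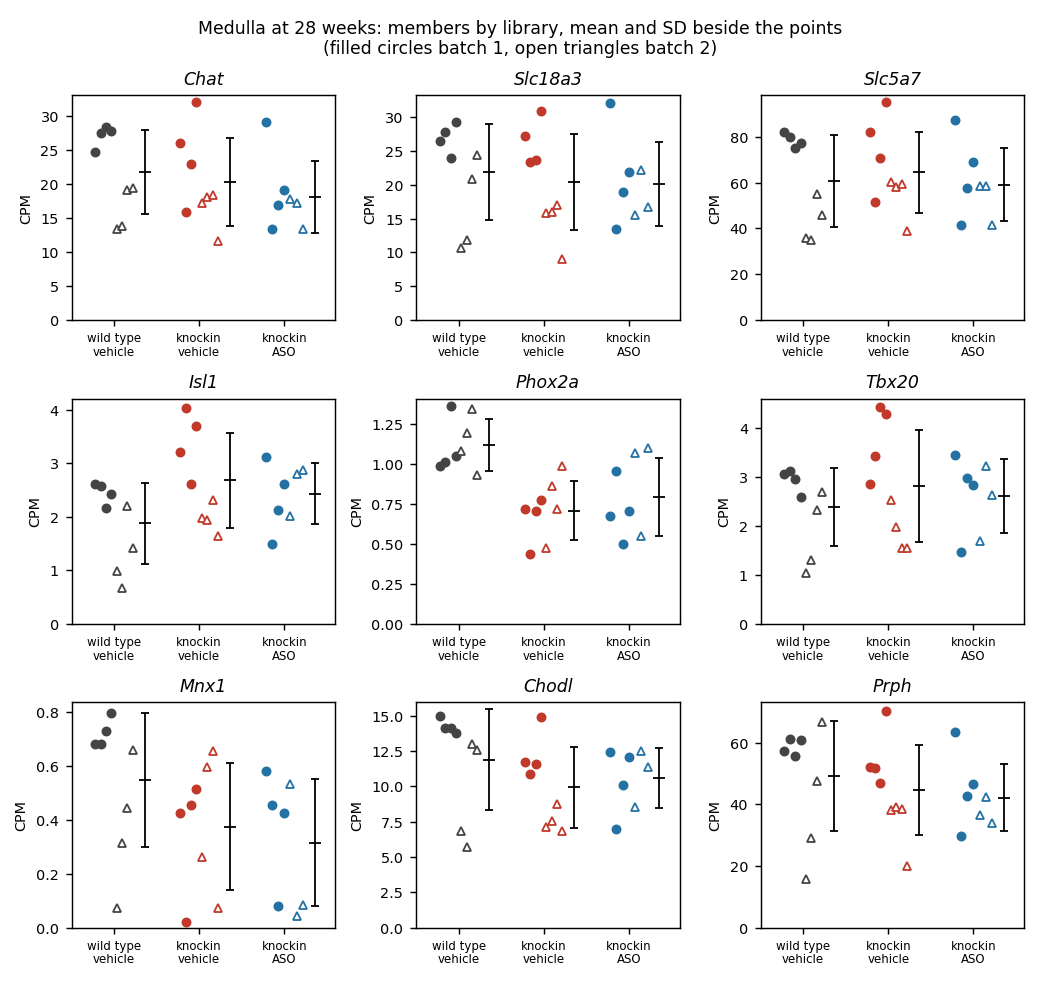
CPM of the 9 genes in each medulla library at 28 weeks, by group; filled circles are libraries of batch 1 and open triangles are libraries of batch 2. In wild type, all batch 1 libraries lie above those of batch 2 for Chat, Slc5a7, Chodl and Mnx1. Prph is higher in batch 1 on average, but its batches overlap. The genotypes overlap for all genes, least for Phox2a.

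With the ASO, 0 of 9 genes were called against knockin medulla by edgeR, with 1.69% of all genes called, and DESeq2, with 3.28%, called 0 too. None had an unadjusted p under 0.05. Phox2a differed by 0.18 (95% interval -0.17 to 0.54) and Chat by -0.16 (-0.48 to 0.15). Against wild type, 0 of 9 were called by edgeR, with 3.8% of all genes called, and 0 by DESeq2, with 7.23%. The 1 gene with an unadjusted p under 0.05 was Phox2a (-0.48 ± 0.18, adjusted p = 0.13).

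Of the 19 other motor neuron genes, 2 were higher and 2 were lower in knockin medulla, a share near the 19.3% of all genes called in this comparison, so the count is not a result about the list. Calca, which encodes the neuropeptide CGRP, rose 2.15-fold (adjusted p = 4.3e-05), from 17.3 ± 4.03 to 37.2 ± 9.37 CPM (SD, n = 8 each), and every knockin library was above every wild type library. Uts2, which encodes urotensin and is known from motor neurons, rose 3.14-fold (adjusted p = 0.00026), from 1.05 ± 0.43 to 3.28 ± 0.887 CPM. Lhx3, a factor of somatic motor neurons and some interneurons, fell 1.72-fold (adjusted p = 0.01), and Spp1 fell 1.48-fold (adjusted p = 0.0069). Within batch 1 or batch 2 alone, the falls of Lhx3 (0.12 and 0.098) and Spp1 (0.11 and 0.094, adjusted p) did not pass. In pons, Calca had the opposite sign, from 15.5 ± 4.6 to 6.85 ± 3.26 CPM (SD, n = 4 each, log2 difference -1.18, adjusted p = 0.1).

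Of 8 acetylcholine handling genes in medulla, Bche and Slc44a2 were higher (log2 differences 0.23 and 0.17) and Prima1 was lower, with a fall of 1.35-fold (adjusted p = 6.9e-05). This count and those of the lists below stand beside 19.3% of all genes called in either direction. Of 14 receptor genes, 5 were lower and 0 were higher: Chrna2 (-1.03), Chrna6 (-1.55), Chrna3 (-0.49), Chrna4 (-0.24) and Chrm3 (-0.39). The receptor count ran from 2 to 5 when single libraries were left out and reached 0 within batch 2. Of 7 noradrenergic genes 5 were lower, with sums of 168 to 516 CPM in wild type and 128 to 200 CPM in knockin. All 4 serotonergic genes were lower, with sums of 78.7 to 391 CPM in wild type and 28.0 to 88.4 CPM in knockin. All 6 astrocyte genes were lower, with sums of 4088.1 to 5126.1 CPM and 2568.1 to 3181.8 CPM that did not overlap. Of 6 oligodendrocyte genes 4 were lower, and of 10 pan-neuronal genes 2 were lower. The pan-neuronal share is near that of all genes, so it is not a result about that list. The Hox genes summed to 41.9 to 443 CPM in wild type and 38.2 to 420 CPM in knockin, with 0 of 16 called by edgeR, 1 at an unadjusted p under 0.05 and 1 called by DESeq2.

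The difference between the regions was tested itself, as the genotype difference in pons less that in medulla at 28 weeks. By edgeR 0 of 9 genes were called, with 0.0184% of all genes called. All 8 genes other than Mnx1 had negative values and an unadjusted p under 0.05. How many of all genes had such a p is not given here. The median of the 9 was -1.01, beside -0.01 over all genes tested. Slc5a7 had the smallest p (-1.28 ± 0.28, 95% interval -1.82 to -0.74, adjusted p = 0.22). DESeq2, with 0.0645% of all genes called, called Slc5a7 (adjusted p = 0.0072), and without knockin pons replicate 4 edgeR called it too (adjusted p = 0.045). Chat differed by -1.07 ± 0.27 (adjusted p = 0.28), Slc18a3 by -1.24 ± 0.35 (0.33) and Phox2a by -1.01 ± 0.31 (0.37). Of the other motor neuron genes, Calca was called, with a log2 difference of -2.29 (adjusted p = 0.016), and its call ended without any 1 of knockin pons replicates 2 and 3 or wild type pons replicate 3 (0.066 to 0.097) and with the header number as a block together with batch 1 alone for medulla (-2.32, adjusted p = 0.1).

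The ASO difference between the regions was called for 0 of 9 genes by edgeR and by DESeq2, with 0.0% of all genes called. Of the 9, 7 had an unadjusted p under 0.05, and the share of all genes with such a p is not given here. Chat differed by 0.83 ± 0.28 and Slc5a7 by 0.90 ± 0.28, both with an adjusted p of 1. Pons and medulla libraries of 1 header number may come from 1 mouse, which these fits do not use.

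**Figure D4:**
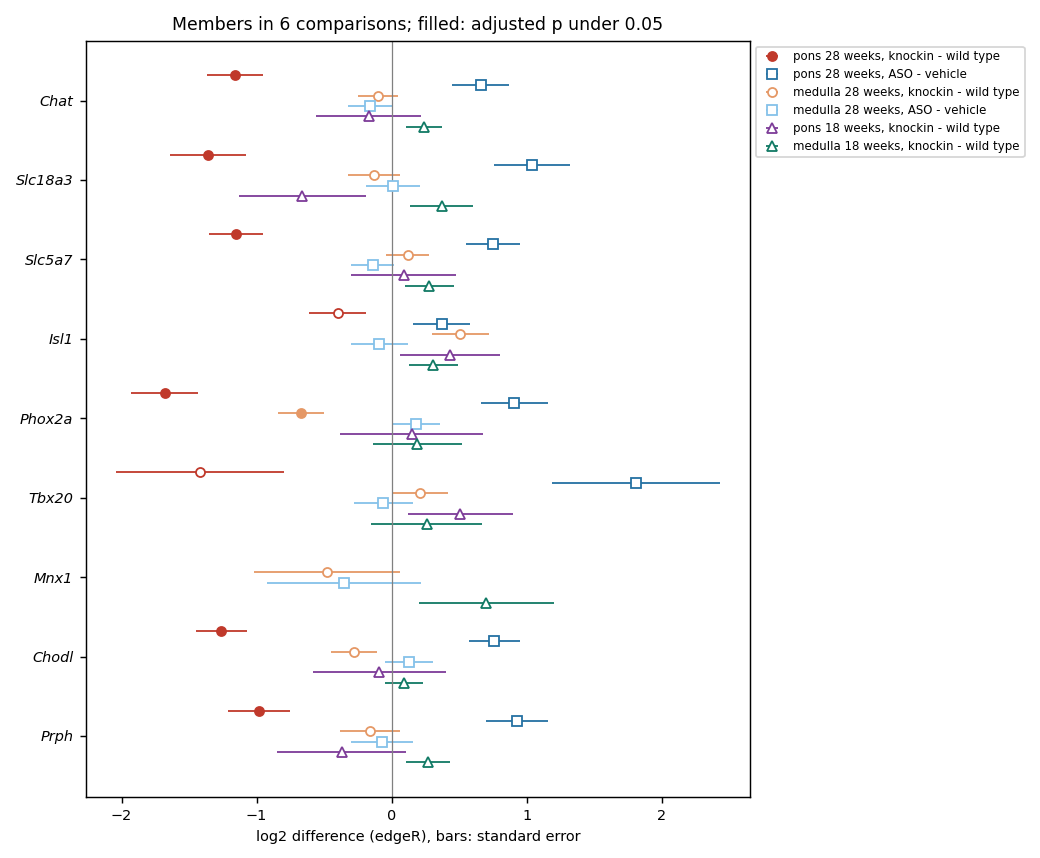
Log2 difference with its standard error for each gene in 6 comparisons; filled points passed an adjusted p of 0.05. In pons at 28 weeks, knockin lies below wild type for all 8 genes tested and ASO lies above knockin for all 8, while most medulla values lie near 0.

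At 18 weeks, 0 of the 9 genes in medulla and 0 of the 8 tested in pons were called by edgeR in knockin against wild type or in ASO against knockin, with 0.0% of all genes called in each of these 4 comparisons. DESeq2 called 0 of them as well, with 0.0817% and 0.106% of all genes called in pons and 0.0718% and 0.0154% in medulla. Isl1 in pons with the ASO was the 1 case of an unadjusted p under 0.05 (log2 difference -0.96, adjusted p = 0.75). Chat held 20.1, 19.4 and 27.1 CPM in wild type medulla, 26.9, 29.2 and 22.9 CPM in knockin and 21.2, 23.4 and 24.7 CPM with the ASO. Its groups overlapped, and the log2 difference between knockin and wild type was 0.24 (95% interval -0.02 to 0.50).

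In pons at 18 weeks, Chat held 9.46, 27.4 and 11.9 CPM in the libraries labelled wild type, 13.1, 10.1 and 19.6 CPM in knockin and 13.4, 9.76 and 10.4 CPM with the ASO. Wild type replicate 2 stood above all others, also for Prph (49.2 CPM beside 11.9 and 17.5 in the other wild type libraries) and Chodl (22.9 CPM beside 4.5 and 9.31). The interval of the genotype difference of Chat was accordingly wide, at -0.93 to 0.58. In pons with the ASO, Isl1 was lower than in knockin in all libraries (1.3, 1.39 and 1.1 beside 2.46, 2.19 and 2.69 CPM), as in 5.21% of all genes. In medulla, Slc5a7 was lower with the ASO in all libraries (72.2, 80.7 and 79.5 beside 100, 114 and 82.7 CPM), as in 7.45% of all genes. Neither was called.

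Whether the genotype difference in pons changed between the ages was tested as 28 weeks less 18 weeks. By edgeR 0 of 8 genes were called, with 0.0% of all genes called, and DESeq2 called 0 of the 5 to which it gave an adjusted p, with 12.7% of all genes called. Isl1, Phox2a and Tbx20 had no DESeq2 adjusted p here. An unadjusted p under 0.05 was found for 5: Phox2a (-1.82 ± 0.56, adjusted p = 0.087), Slc5a7 (-1.23 ± 0.44, 0.12), Tbx20 (-1.91 ± 0.81, 0.17), Chodl (-1.15 ± 0.51, 0.19) and Chat (-0.97 ± 0.44, 0.2). How many of all genes had such a p is not given here. Without wild type pons replicate 2 at 18 weeks, 5 were called: Chat (-1.58, adjusted p = 0.043), Slc5a7, Isl1, Phox2a and Chodl. The share of all genes called in that fit is not given here. When single libraries were left out, 0 to 2353 of all genes were called, so the 5 are not read as a result about these genes. The count thus rests on that library, and the library labelled wild type replicate 3, whose Atxn1 was low, is 1 of the other 2. In medulla, 28 weeks less 18 weeks gave 0 of 9 called by edgeR, with 0.0046% of all genes called, and 0 of 7 by DESeq2, with 0.99% (Phox2a and Mnx1 had no adjusted p), and Phox2a had the 1 unadjusted p under 0.05 (-0.86 ± 0.35, adjusted p = 0.33).

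In cerebellum, which holds no motor nucleus, Chat averaged 0.143 CPM, Slc5a7 0.537 CPM and Prph 0.323 CPM in wild type at 18 weeks, and Mnx1 was at 0 in 11 of 12 libraries. Chat, Slc18a3, Slc5a7, Chodl and Prph met the filter on low counts. In knockin 0 of these 5 were called by edgeR, with 2.71% of all genes called, 0 had an unadjusted p under 0.05, and DESeq2 called 0 of 4, with 6.73% of all genes called (Slc18a3 had no adjusted p). With only those 2 groups fitted, Chodl was called higher (1.81, adjusted p = 0.04), at 0.102, 0.0787, 0.0266 and 0.206 CPM in wild type and 0.337, 0.321, 0.151 and 0.631 CPM in knockin. The share of all genes called in that fit is not given here. Over all alternatives, 277 to 3161 of all genes were called in knockin cerebellum, beside 552 in the main fit. With the ASO 0 were called by edgeR, with 0.0491% of all genes called, and 1, Prph, had an unadjusted p under 0.05. DESeq2 called 0, with 1.2% of all genes called. ASO replicate 4 held the most Chat (1.05 CPM) and Slc5a7 (3.23 CPM) of the 12 cerebellum libraries.

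Across the 53 medulla and pons libraries, each gene's log2 CPM was centred within its group and batch and set against Chat. Slc18a3 (Pearson r = 0.89, Spearman rho = 0.87), Slc5a7 (0.86 and 0.83) and Prph (0.80 and 0.81) varied most closely with it (permutation adjusted p = 2e-05 each, over 7 genes). Chodl followed (0.71 and 0.66, permutation adjusted p = 0.0001), then Isl1 (0.62 and 0.55, 0.0004), Tbx20 (0.49 and 0.50, 0.0009) and Phox2a (0.45 and 0.37, 0.02). Leaving out the 2 libraries farthest from the median of Chat gave r from 0.41 (Phox2a) to 0.86 (Slc18a3). Of the animals as numbered in the headers, 21 gave 2 libraries each, so the libraries are not all independent. Of the position genes, Hoxb5 had r = 0.32 and Hoxa5 had r = 0.27 with Chat, and the part of dissection level in the values above was not tested.

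Genes on none of the lists read here were also ranked by r to Chat, so the other cholinergic and motor neuron genes listed were left out. Ranked genes had an official symbol, met the filter in every medulla and pons fit, and reached a minimum average level. The 6 with the highest r were Acly (0.93), Ecel1 (0.81), Kcnj14 (0.80), Dhcr7 (0.78), Grin3b (0.76) and Ahnak2 (0.75), given as a description since they were chosen by it. Acly makes cytosolic acetyl-CoA, a substrate of choline acetyltransferase, Ecel1 is an endopeptidase known from motor neurons, Kcnj14 is a potassium channel and Grin3b a glutamate receptor subunit of motor neurons, and Dhcr7 acts in cholesterol synthesis. In the group comparison of pons at 28 weeks, which the centring had removed from r, all 6 fell in knockin: Kcnj14 by 1.22 (adjusted p = 0.014), Ahnak2 by 0.79 (0.047), Grin3b by 0.67 (0.039), Ecel1 by 0.62 (0.021), Dhcr7 by 0.48 (0.00048) and Acly by 0.34 on the log2 scale (0.0076). In knockin medulla, where Chat did not pass, Dhcr7 fell by 0.39 (adjusted p = 8.7e-06) and Grin3b by 0.55 on the log2 scale (0.003), and the other 4 did not pass. Alternatives were not run for these 6 genes.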

How the data were processed

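The values are raw counts of reads per gene, as the authors deposited them, for 49670 gene IDs in 65 libraries, and 0 columns were left out. Total RNA was made into stranded TruSeq libraries, per the labels. The submitters' processing notes name CASAVA 1.8, HISAT2 2.0.2, featureCounts of Subread, GRCm38, R 3.3.3 and DESeq2 1.14.1. The sources used here do not say how strand and read pairs were counted. GENCODE vM21 named 49325 IDs.

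Each region and age was fitted with its 3 groups in 1 edgeR 4.0.16 quasi-likelihood model (limma 3.58.1, R 4.3.3; TMM, filterByExpr with a minimum count of 10, robust fits), with batch as a term for medulla at 28 weeks. Differences between regions or ages were interactions in joint models. P-values were adjusted (Benjamini-Hochberg) over all genes tested, and the threshold for a call was 0.05. In the text, fold changes, standard errors and adjusted p-values are edgeR's unless DESeq2 1.42.0 is named. CPM levels used 1 TMM scaling over all libraries. On simulated counts for pons at 28 weeks (20162 genes), 58% of genes changed 1.5-fold and 77% of those changed 2-fold were recovered. For medulla (20232 genes) the shares were 71% and 81%. Only 100 genes were changed per fold and region, drawn over all levels, beside 2002 and 3944 genes called in pons and medulla in the data. These shares therefore need not hold for the data or for genes at low levels.

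The genes and the gene lists were chosen with earlier results of these data known. The text names all 9 genes, the genes of the lists that were called or that a result turns on, and the 6 genes most like Chat among those on no list. Values of some listed genes are not reported here. Correlations were tested with 100000 permutations within groups. Intervals cover 95%, and counting intervals cover counting error only. Alternatives were another scaling, no filter, DESeq2, only 2 groups, a replicate block, single batches, no batch term, no libraries low in Hox genes (mean log2 CPM over 1 below the median) and each library left out. Replicate numbers did not pair libraries across groups.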

Additional observations from a re-analysis of the deposited data

Results flagged for a closer look

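Of 74 groups of 4 to 10 libraries examined for a single library far from the others, 4 stood out, and chance marks about 1 in 20 such groups. Chat was at 29.2 CPM in ASO replicate 1 of medulla at 28 weeks, with the next library at 19.1 CPM. Mnx1 was at 0.171 CPM in ASO replicate 2 of pons at 28 weeks, with the next at 0.0266 CPM. In cerebellum, knockin replicate 2 held 0.16 CPM of Slc18a3, with the next at 0.0225 CPM, and 0.0401 CPM of Phox2a, with the other 3 at 0. The values of Mnx1 and of the cerebellum rest on few counts.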

How the results depend on the processing

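Of 3557 values of single genes under alternatives, 10 lost their call, 22 gained one and 0 called values changed sign. In pons at 28 weeks the count of genes lower in knockin stayed within 1.5 times of 6 under all alternatives, 4 to 7. The count in knockin medulla at 28 weeks was 0 in batch 1 alone and 0 in batch 2 alone, and 1 to 2 when single libraries were left out. DESeq2 gave 6 in pons for ASO against knockin, 1 for ASO against wild type and 1 for the genotype difference between regions, where leaving out single libraries gave 0 to 1. Knockin cerebellum gave 1 with only 2 groups fitted. Wild type pons against medulla gave 6 with the animal block and batch 1 medulla libraries alone, 2 changes made together, and pons at 28 less 18 weeks gave 0 to 5 without single libraries.

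Replicate numbers are shared between the groups but did not pair them: the median correlation of deviations between libraries of 1 number was -0.16 to -0.01. With the replicate number as a block, 6 genes stayed called in knockin pons, no other count of these genes changed, and the count over all genes went from 2002 to 1524.

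Counts over all genes moved more than those of the 9 genes. Over alternatives they ran from 831 to 4259 for knockin pons at 28 weeks, from 644 to 5411 for knockin medulla (3944 as reported), from 3 to 620 for ASO against knockin in pons (19) and from 0 to 618 in medulla (346). For ASO against wild type they ran from 16 to 1102 in pons (218) and from 41 to 1608 in medulla (777). In cerebellum they ran from 277 to 3161 (552) and from 2 to 235 with the ASO (10). For the interactions they ran from 0 to 141 between regions (4), from 0 to 2353 for age in pons (0) and from 0 to 136 for age in medulla (1), and for wild type pons against medulla from 1325 to 4134 (3083). At 18 weeks they were 0 as reported and at most 14 and 9 in medulla and 13 and 18 in pons. Genes under 1 CPM, such as Mnx1 in pons, were near the limit that these depths can show.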

Other observations

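Within each pons library at 28 weeks, the log2 ratio of each other gene to Chat was compared between groups, a choice made after the data were seen. With 4 libraries against 4 the smallest exact two-sided p is 0.0286, or 0.2 after adjustment over 7 tests for a ratio that alone reached it, so a single ratio could not have passed. None of 7 ratios passed between knockin and wild type. Isl1 had the largest positive difference in this ratio, from -3.78 ± 0.33 in wild type to -3.04 ± 0.32 in knockin (SD, n = 4 each, exact two-sided permutation p = 0.0571, adjusted p = 0.3 over 7 tests), and the ratio of Slc5a7 to Chat was 1.53 ± 0.18 and 1.55 ± 0.1 (exact permutation p = 0.914).

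For the 21 animals, as numbered in the table's headers, with both a medulla and a pons library, Chat centred within groups was compared between the regions. Pearson's r was 0.03 and Spearman's rho was -0.1 (permutation p = 0.908), and r was -0.2 without the 2 animals farthest from the median in medulla.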
